A study of Homo sapiens with 4 samples.

Results

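Translation is carried out by the ribosome and by the factors that load, move and charge it, and the genes of this machinery were described here at the genomic regions of an HNF4A binding series. Membership went by gene name alone, though the set itself was chosen with earlier results of these data known. Every region was taken whose closest gene, as the authors list it, is a cytosolic (RPL, RPS) or mitochondrial (MRPL, MRPS) ribosomal protein. Also taken were those of an initiation factor (EIF), an elongation factor (EEF) or a 4- or 5-letter aminoacyl-tRNA synthetase symbol ending in ARS or ARS2. Of 5326 regions, 69 matched the name pattern. The rule left out 6 of these: the pseudogenes RPL13AP5 and RPS10P7, the kinase genes RPS6KA1 and RPS6KA2, and the translation inhibitor genes EIF4EBP1 and EIF4EBP3, the last because its symbol has the same ending as a pseudogene's. The 63 remaining regions belong to 59 genes on 15 chromosomes. A closest gene is a listing by position, and it does not show that the gene is regulated from the region. No hg19 annotation was used here, so whether a region lies in an exon, an intron or a UTR was not determined.

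HNF4A is a nuclear receptor that activates liver genes, and HCCLM3 is a metastatic human line established from liver cancer. In the assay, chromatin immunoprecipitation followed by sequencing, DNA fragments pulled down by an antibody are counted, and IgG, which has no specific target, gives the background. The 4 libraries, 1 per group, were HNF4A at high glucose, IgG at high glucose, HNF4A at low glucose and IgG at low glucose, so no difference below has a replicate. Per the labels' protocols, all 4 groups came from HCCLM3 lines transduced with a lentiviral overexpression vector (pCDH-CMV-MCS-EF1-puro, a CMV promoter with puromycin selection), and the growth medium given for every library is high glucose DMEM with fetal bovine serum. Which cDNA was overexpressed, the glucose concentrations and the time at low glucose are not stated in the labels. The files hold binding reads and no expression, so the cell line was not checked against marker genes.

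In human cells the cytosolic ribosome is built of a small and a large subunit, whose proteins are mostly encoded by a single active gene each, scattered over the chromosomes, beside many silent pseudogenes. A few have active paralogues, as RPL22 has in RPL22L1. Mitochondria hold a separate ribosome that makes only subunits of the respiratory chain and of ATP synthase, but its proteins are encoded in the nucleus and imported. Initiation factors place the small subunit on the start codon, elongation factors bring charged tRNAs and move the ribosome along, and aminoacyl-tRNA synthetases join each amino acid to its tRNA. Ribosomal protein and translation factor genes are housekeeping genes, transcribed in all growing cells from promoters rich in CpG dinucleotides.

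Promoter windows of 300 bases (250 before to 50 after the transcription start; RefSeq, build GRCh38.p14) were matched for 55 of the 59 genes, 53 by symbol and 2 by an older symbol. EIF3E, MRPS28, RPL23 and RPS20 were not matched. The windows are of another build than the hg19 regions, so whether a region covers its gene's window was not determined. Each window was searched on both strands for CAAAGTCCA and CAAAGGTCA, forms of the direct repeat that HNF4A recognises, for CCGGAAG, a motif of ETS factors, and for CACGTG, the E-box. No searched motif contains another. Either HNF4A form was present in 1 of the 55 windows (1.82%), against 0.769% of 27305 windows of all genes and 0.760% of the 2893 windows of genes closest to the other regions. The CCGGAAG motif was present in 18 of 55 (32.7%), against 10.7% and 17.1%. Of those 18, 9 belonged to mitochondrial ribosomal proteins, which had 23 of the 55 windows. The E-box was present in 7 of 55 (12.7%), against 7.43% and 11.0%. The median window held 25 CpG dinucleotides, against 14 in all windows and 26 in those of genes closest to the other regions. A match is a description of letters and not a bound site.

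Shown 5′ to 3′ on the strand of the gene are 5 of these windows, with the searched motifs in capitals. That of RPS3A is the one holding an HNF4A form (CAAAGGTCA), and it also holds an ETS motif. MRPL32 and MRPL46, whose regions had the highest HNF4A over IgG ratios at high glucose, had windows with none of the motifs. Those of MRPL48 and MRPS21 held the ETS motif read on the other strand (CTTCCGG). MRPS21 and 1 region of MRPL48 are among those flagged below for a difference in ratio between glucose levels. Of the other genes flagged there, EIF3M, MRPL16 and MRPS23 had windows with the ETS motif on either strand. Windows of EEF1A1, EIF2D, RPS19 and MRPL32 did not hold it, and a link between motif and difference was not tested.
RPS3A (chr4:151099378-151099677, + strand): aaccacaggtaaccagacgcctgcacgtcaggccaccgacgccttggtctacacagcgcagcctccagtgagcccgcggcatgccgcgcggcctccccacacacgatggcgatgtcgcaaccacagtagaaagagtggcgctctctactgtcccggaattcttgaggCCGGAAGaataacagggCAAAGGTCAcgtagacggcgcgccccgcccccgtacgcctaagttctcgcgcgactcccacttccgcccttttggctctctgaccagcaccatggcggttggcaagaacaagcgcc
MRPL32 (chr7:42932126-42932425, + strand): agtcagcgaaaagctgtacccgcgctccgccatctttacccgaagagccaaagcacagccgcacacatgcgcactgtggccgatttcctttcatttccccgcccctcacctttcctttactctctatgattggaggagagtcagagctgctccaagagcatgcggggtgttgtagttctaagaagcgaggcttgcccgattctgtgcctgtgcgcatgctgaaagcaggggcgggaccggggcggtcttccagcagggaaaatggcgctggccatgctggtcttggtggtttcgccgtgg
MRPL46 (chr15:88467339-88467638, - strand): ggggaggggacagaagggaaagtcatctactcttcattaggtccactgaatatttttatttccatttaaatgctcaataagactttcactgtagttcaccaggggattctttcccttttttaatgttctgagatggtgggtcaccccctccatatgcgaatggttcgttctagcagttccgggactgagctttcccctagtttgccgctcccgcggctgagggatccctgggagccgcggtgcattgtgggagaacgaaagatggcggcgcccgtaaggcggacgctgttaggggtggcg
MRPL48 (chr11:73787624-73787923, + strand): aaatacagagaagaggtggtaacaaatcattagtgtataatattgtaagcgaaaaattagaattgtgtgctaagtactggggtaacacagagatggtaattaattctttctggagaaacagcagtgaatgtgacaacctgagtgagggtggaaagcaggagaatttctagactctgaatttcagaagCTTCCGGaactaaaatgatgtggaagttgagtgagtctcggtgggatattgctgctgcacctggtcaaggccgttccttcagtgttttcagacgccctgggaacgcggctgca
MRPS21 (chr1:150293611-150293910, + strand): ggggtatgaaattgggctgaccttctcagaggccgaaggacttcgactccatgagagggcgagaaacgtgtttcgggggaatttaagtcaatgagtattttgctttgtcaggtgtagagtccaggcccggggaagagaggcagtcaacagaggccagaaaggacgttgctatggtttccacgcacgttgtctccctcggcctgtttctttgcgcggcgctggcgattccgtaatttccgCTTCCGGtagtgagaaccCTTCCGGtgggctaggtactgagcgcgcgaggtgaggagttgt

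Over IgG at high glucose, ribosome and translation genes stood below the level of the series: the median log2 ratio of their regions was 0.32 against 0.79 for all 5326 regions. The ratio is of reads scaled by relative library size, each range in brackets is its exact 95% counting interval, and at least 2-fold means a log2 ratio of 1 or more. HNF4A reads reached that fold in 9 of 63 member regions (14.3%), against 41.6% of all regions. Those 9 were regions of EEF1A1, EEF1B2, EIF5B, MRPL32, MRPL33, MRPL46, MRPL55, RPS10 and RPS3A. The interval lay above 0 in 20 member regions (31.7%; 55.2% of all regions) and below 0 in 2, EIF3B and EIF3K (2.07% of all regions). Relative to the median of all regions, the interval lay wholly below it in 24 members (38.1%; 23.4% of all regions) and wholly above it in 6 (9.52%; 20.2%). The direction against IgG itself depended on scaling: 48 of 63 members (76.2%; 84.2% of all regions) were above IgG with the authors' library sizes and 23 (36.5%; 60.1% of all regions) when libraries were scaled to equal sums over all regions. These sums include single regions with up to 18380 HNF4A and 17159 IgG reads at high glucose. Scaling to equal sums moved the median of all regions by -0.54 and the median of the members to -0.23. It shifts every log2 ratio by the same amount, so it cannot change the distance of -0.47 between the medians of members and of all regions.

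At low glucose the members lay closer to the other regions, with a median log2 ratio of 0.85 against 0.94. A ratio of 2-fold or more was reached by 24 of 63 (38.1%), against 46.8% of all regions, and the interval lay above 0 in 28 (44.4%; 56.2% of all regions) and below 0 in 0 (0.713%). It lay wholly above the median of all regions in MRPL16, MRPL46 and 1 region of MRPL48 (4.76%; 9.99% of all regions), and wholly below it in 10 members (15.9%; 14.9%). No member region was 2-fold below IgG at either glucose level, where 1.05% and 0.488% of all regions were. Above IgG were 61 of 63 members (96.8%; 91.5% of all regions), or 41 (65.1%; 71.0%) with equal sums, a scaling that moved the median of all regions by -0.55. At both glucose levels 7 members had at least a 2-fold excess, against 31.4% of all regions. Both ratios lay above 0 in 47 members (74.6%; 79.7% of all regions), and 14 (22.2%; 11.8%) were below IgG at high and above it at low glucose. EIF3E was the reverse (4.45% of all regions), and MRPS12 was below at both (4.06%).

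**Figure D1:**
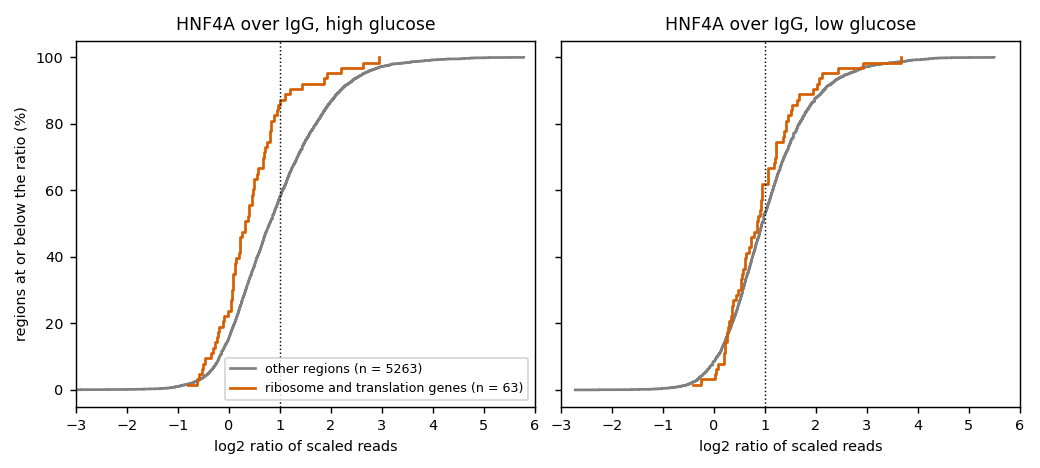
Cumulative share of regions (y axis, percent) at or below a given log2 ratio of HNF4A over IgG (x axis), for the 63 regions of ribosome and translation genes and the 5263 other regions, at each glucose level; the dotted line marks a 2-fold excess. At high glucose the members' curve runs to the left of the other regions' curve, with medians of 0.32 and 0.80, and at low glucose the curves lie closer, with medians of 0.85 and 0.94.

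At the median, members held more IgG reads than all regions did, and HNF4A reads were close. Per kilobase and scaled by library size, the median member held 41.9 HNF4A reads at high glucose, against 41.7 over all regions, and 32.4 IgG reads, against 25.1. At low glucose the values were 35.3 HNF4A reads against 33.1, and 20.1 IgG reads against 17.0. IgG reads per kilobase lay above the median of all regions in 47 of 63 members at high and 41 at low glucose, and HNF4A reads in 34 at each. Over all regions HNF4A reads per kilobase varied less, with quartiles of 35.1 and 51.3 at high glucose, against 16.1 and 35.3 for IgG. The 2 were therefore not weighed against each other. The part of the IgG level in the low ratio was not tested, since IgG is the denominator of the ratio. Length differed little: the median member region measured 1003 bp (range 302 to 2673 bp), against 1030 bp for all regions.

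**Figure D2:**
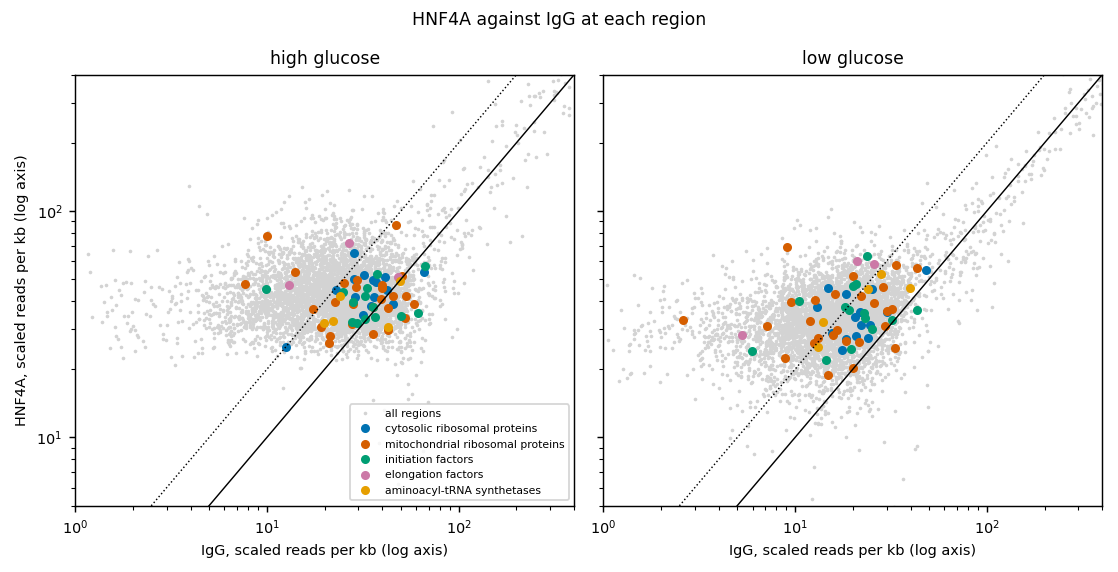
HNF4A reads (y axis) against IgG reads (x axis), both scaled by library size and per kilobase on log axes, for all regions (grey) and for the 63 member regions by role; the solid line marks equality and the dotted line a 2-fold excess, and grey points outside the axes are not drawn. At high glucose most members sit between the lines at a median of 32.4 IgG reads, and MRPL32, MRPL46 and EIF5B stand above the 2-fold line at 7.70 to 10.0 IgG reads.

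Cytosolic ribosomal proteins had 15 regions, 1 per gene, and low ratios at both glucose levels: their medians were 0.39 at high and 0.56 at low glucose, with 2 and 3 regions at or above a 2-fold excess. RPS3A, a protein of the small subunit, had the highest ratio of this group at high glucose. Its region (hg19 chr4:152020178-152021349) held 84 HNF4A and 33 IgG reads at high glucose, and 44 and 15 at low glucose. The log2 ratio was thus 1.20 (0.60 to 1.83) and 1.53 (0.65 to 2.48), respectively, and its promoter window is the one shown above with an HNF4A form. RPL27, of the large subunit (chr17:41149934-41150893), held 53 and 27 reads at high glucose and 44 and 14 at low glucose, ratios of 0.83 (0.13 to 1.55) and 1.63 (0.73 to 2.61). RPS10 held few reads, 20 and 9 at high and 21 and 11 at low glucose, and its ratio of 1.01 (-0.19 to 2.32) at high glucose had an interval that included 0.

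RPS19, a small subunit protein mutated in Diamond-Blackfan anaemia, was near IgG at high glucose and above it at low glucose. Its region (chr19:42363218-42364711) held 84 HNF4A and 61 IgG reads at high, and 64 and 27 at low glucose, ratios of 0.32 (-0.18 to 0.82) and 1.22 (0.55 to 1.92). RPL38, RPS20 and RPL35 had intervals just above 0 at high glucose, at 0.96 (0.16 to 1.80), 0.69 (0.05 to 1.35) and 0.54 (0.01 to 1.09), and intervals that included 0 at low glucose. The remaining 9, RPL10, RPL18, RPL22L1, RPL23, RPL41, RPS3, RPS16, RPS27 and RPS19, ranged from -0.29 to 0.48 at high glucose, and all 9 intervals there included 0. The lowest of the group was RPS27, where HNF4A gave 59 and IgG 65 reads at high glucose, and 55 and 47 at low glucose. The 8 large subunit and 7 small subunit regions had medians of 0.43 and 0.32 at high glucose.

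Mitochondrial ribosomal proteins had 26 regions of 24 genes and the widest range of the 5 roles, spanning -0.64 to 2.94 at high glucose, and -0.42 to 3.67 at low glucose. This role also had the most regions, and a range tends to widen with their number. Their medians were 0.28 and 0.85, and 4 and 11 regions had at least a 2-fold excess. The 16 large subunit regions had a median of 0.56 at high glucose and held all 4 of the 2-fold regions, while the 10 small subunit regions had a median of -0.04. IgG reads per kilobase differed in the opposite way, with medians of 25.3 for the large and 42.7 for the small subunit, and HNF4A reads stood at 38.7 and 42.1.

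MRPL32, whose maturation by a mitochondrial protease controls assembly of the mitochondrial ribosome, had the highest ratio of all members at high glucose. Its region (chr7:43022028-43022829) held 68 HNF4A and 8 IgG reads at high glucose and 24 and 13 at low glucose. The ratio was 2.94 (1.88 to 4.21) at high glucose and 0.86 (-0.17 to 1.95) at low glucose. MRPL46 (chr15:89008916-89009700) was high at both: it held 41 and 6 reads at high and 26 and 2 at low glucose, ratios of 2.63 (1.38 to 4.15) and 3.67 (1.68 to 6.79), the latter wide because of its 2 IgG reads. In the authors' deposited tables, MRPL32 and EIF5B were the members with an unadjusted p under 0.05 at high glucose and MRPL46 the one at low glucose, 3.17% and 1.59% of members against 4.98% and 3.04% of all regions. The lowest p of a member was 0.0194 for MRPL32, and 0 members and 0 of 5326 regions had an FDR under 0.05 in any of the authors' deposited tables.

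MRPL33 had 2 regions that lie 32.8 kb apart and read differently. The first (chr2:27960301-27961303) held 59 HNF4A and 14 IgG reads at high glucose and 31 and 7 at low glucose, ratios of 1.93 (1.07 to 2.88) and 2.12 (0.91 to 3.55). The second (chr2:27994129-27994920) held 25 and 28 reads at high and 31 and 20 at low glucose, ratios of -0.31 (-1.15 to 0.52) and 0.61 (-0.25 to 1.49). MRPL55 and MRPS22 were above IgG at both glucose levels, MRPL55 at 1.09 (0.15 to 2.11) and 1.40 (0.45 to 2.45), and MRPS22 at 0.93 (0.09 to 1.83) and 1.66 (0.54 to 2.93). MRPL24 (chr1:156709887-156711742) held the most HNF4A reads of any member, 177 at high and 104 at low glucose, where IgG gave 87 and 79. Its ratios were 0.88 (0.50 to 1.27) and 0.37 (-0.07 to 0.81).

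MRPS12, MRPS17 and MRPS21, all of the small subunit, were the lowest at high glucose among mitochondrial ribosomal protein genes with 1 region, at -0.35 (-0.90 to 0.20), -0.52 (-1.30 to 0.25) and -0.64 (-1.41 to 0.11). MRPS12 (chr19:39420674-39421846) held 54 HNF4A and 62 IgG reads at high glucose and 29 and 38 at low glucose, and it was the lowest member at low glucose, at -0.42 (-1.17 to 0.32). MRPL12 and MRPS7, among the most read regions with 138 and 103 HNF4A reads at high glucose, had 105 and 91 IgG reads and ratios of 0.25 (-0.13 to 0.63) and 0.03 (-0.39 to 0.46). At this depth both intervals excluded a 2-fold excess.

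MRPS24, at 0.74 (0.12 to 1.39) and 0.94 (0.22 to 1.70), was above IgG at both glucose levels with intervals that excluded 0. MRPL11 and MRPL19 had higher ratios at high glucose, with intervals of the difference that included 0. MRPL11 held 51 HNF4A and 29 IgG reads there and 31 and 29 at low glucose, and MRPL19 held 53 and 30, then 32 and 31. MRPL44, MRPL17, MRPS28, MRPL41, MRPL30, MRPS16 and MRPS5 ranged from -0.20 to 0.39 at high glucose with intervals that included 0. Of these 7, MRPL44 at 1.45 (0.30 to 2.73) and MRPS28 at 0.68 (0.10 to 1.28) had intervals above 0 at low glucose.

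Initiation factors, grouped by symbol, had 14 regions of 13 genes, with medians of 0.17 at high and 0.78 at low glucose. EIF5B, the GTPase that joins the ribosomal subunits at the start codon, stood apart from the rest at high glucose. Its region (chr2:100019245-100020775) held 76 HNF4A and 15 IgG reads at high glucose and 37 and 9 at low glucose. The ratios were 2.19 (1.38 to 3.10) and 2.01 (0.94 to 3.25), and it was the single initiation factor region of 14 with a 2-fold excess at high glucose. At low glucose 6 of the 14 had one (42.9%), against 46.8% of all regions. EIF1, which keeps start codon choice accurate, followed with 76 and 39 reads at high and 73 and 31 at low glucose, ratios of 0.82 (0.24 to 1.41) and 1.21 (0.58 to 1.87).

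The 4 regions of EIF3, the scaffold complex that binds the small subunit, had the lowest median at high glucose of the groups described, -0.25. EIF3B (chr7:2393481-2395182) held 64 HNF4A against 84 IgG reads at high glucose, at a ratio of -0.54 (-1.03 to -0.05), and 51 and 42 at low glucose, 0.25 (-0.36 to 0.88). EIF3K (chr19:39109510-39110179) held 26 and 41 reads at high glucose, the lowest ratio of all members at -0.80 (-1.57 to -0.06), and 22 and 21 at low glucose, 0.04 (-0.89 to 0.98). EIF3E held 42 and 27 reads at high and 35 and 41 at low glucose, with both intervals including 0. EIF3M differed from these at low glucose, where 35 HNF4A reads stood against 9 IgG reads, a ratio of 1.93 (0.85 to 3.18), after 32 and 28 at high glucose, 0.05 (-0.73 to 0.83).

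Both regions of EIF4B, a cofactor of the helicase that unwinds mRNA leaders, lie 11.7 kb apart and had overlapping intervals, at 0.48 (-0.09 to 1.06) and 0.09 (-0.40 to 0.57) at high glucose and 0.94 (0.17 to 1.75) and 0.62 (0.06 to 1.20) at low glucose. EIF4G1, the scaffold of the cap-binding complex, and EIF4H had intervals that included 0 at both glucose levels. So did EIF1AD, which is in this role by its symbol alone. EIF2B4, a subunit of the exchange factor that recharges eIF2, stood at 0.46 (-0.09 to 1.02) and 1.05 (0.36 to 1.79). EIF2D and EIF1B went from -0.10 (-0.85 to 0.65) and -0.22 (-1.21 to 0.76) at high glucose to 1.20 (0.37 to 2.08) and 1.41 (0.10 to 2.91) at low glucose.

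Elongation factors had 3 regions of 2 genes and the highest medians of the 5 roles, 1.43 at high and 1.51 at low glucose. EEF1B2, which recharges the factor eEF1A with GTP, had a region (chr2:207023656-207025007) in which 107 HNF4A reads faced 36 of IgG at high glucose, and 81 faced 28 at low glucose. Its ratios were 1.43 (0.87 to 2.01) and 1.51 (0.87 to 2.18), which differ by -0.08 (-0.97 to 0.80). EEF1A1, which delivers charged tRNAs to the ribosome, had 2 regions that lie 45.0 kb apart. The region at chr6:74276572-74277344 held 40 and 10 reads at high and 22 and 4 at low glucose, ratios of 1.85 (0.83 to 3.02) and 2.43 (0.88 to 4.43). The region at chr6:74230331-74231598 held more reads, 71 and 61 at high and 74 and 32 at low glucose, ratios of 0.07 (-0.44 to 0.59) and 1.18 (0.57 to 1.83).

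Aminoacyl-tRNA synthetases had 5 regions, 1 per gene: those for glycine (GARS) and isoleucine (IARS), and the mitochondrial enzymes for leucine (LARS2), methionine (MARS2) and threonine (TARS2). None had a 2-fold excess at high glucose, and GARS did at low glucose. GARS (chr7:30633274-30634943) held 77 HNF4A and 40 IgG reads at high and 54 and 23 at low glucose, ratios of 0.80 (0.23 to 1.39) and 1.21 (0.48 to 1.98). LARS2 stood at 0.70 (0.01 to 1.40) and 0.94 (0.10 to 1.82). TARS2, the most read of the group with 95 and 87 reads at high and 81 and 69 at low glucose, was level with IgG, at -0.02 (-0.45 to 0.42) and 0.21 (-0.28 to 0.69). MARS2 and IARS had intervals that included 0 at both glucose levels.

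**Figure D3:**
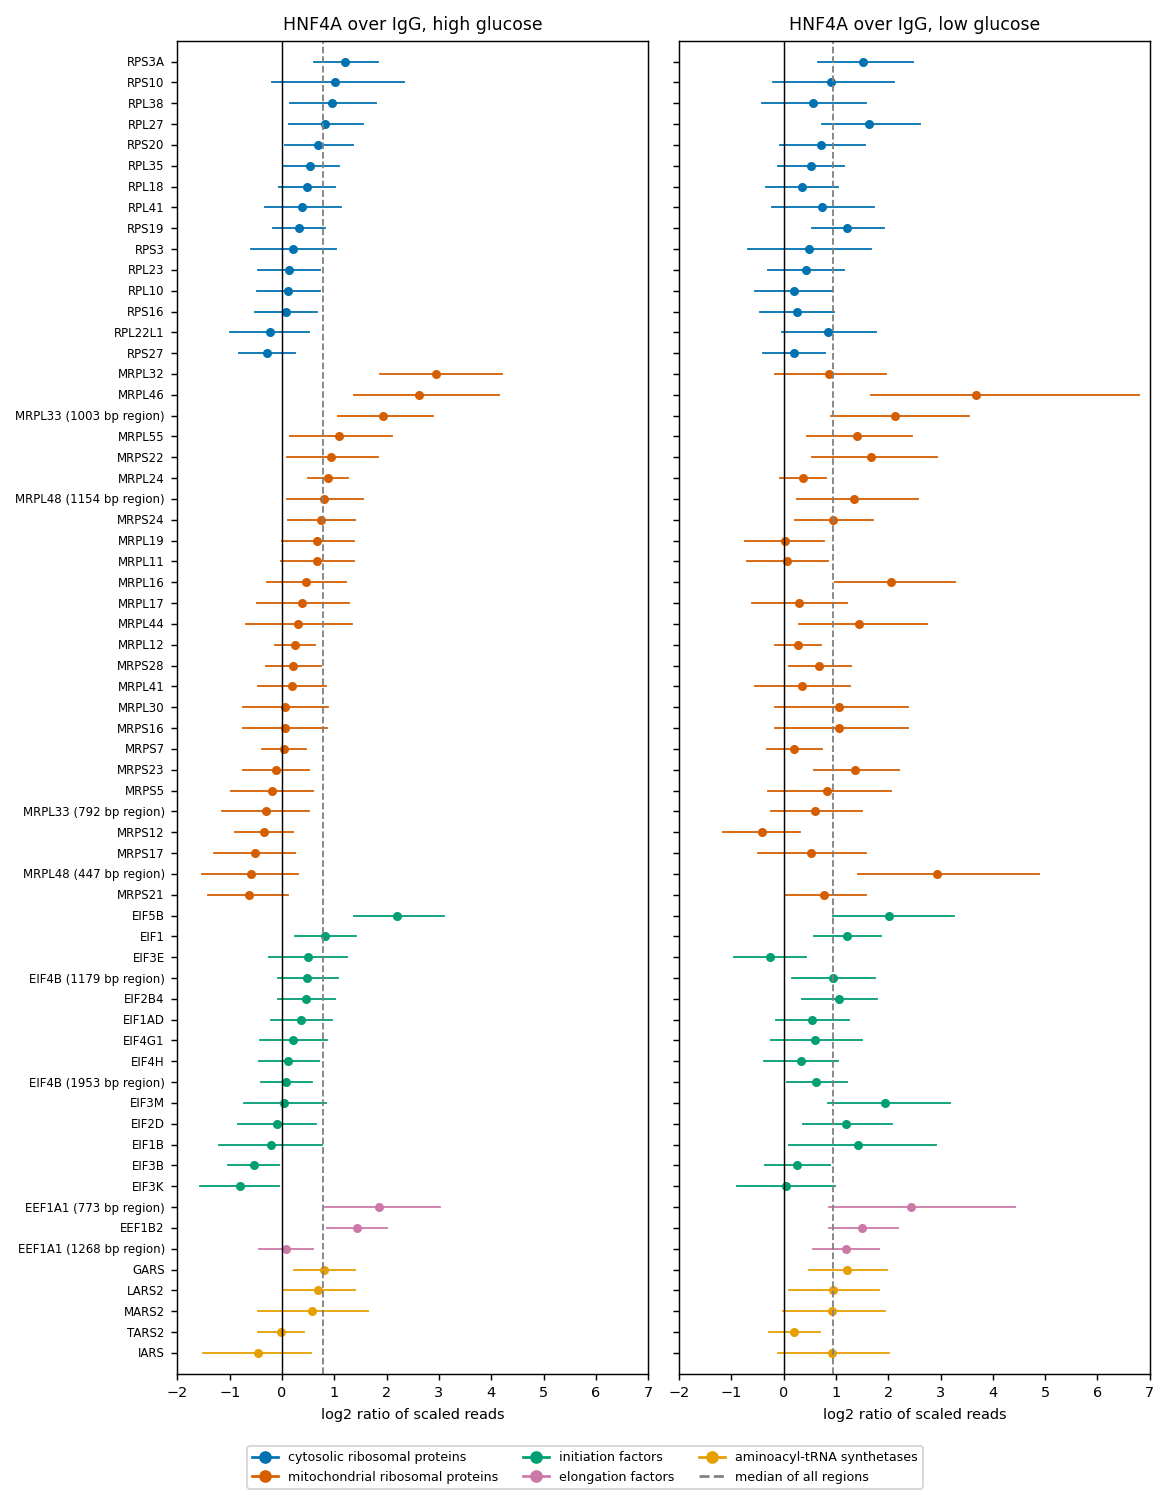
Log2 ratio of HNF4A over IgG scaled reads (x axis) at high and low glucose for each of the 63 member regions (y axis), coloured by role and ordered within a role by the ratio at high glucose; points are 1 library pair each, bars are exact 95% counting intervals, and the dashed line is the median of all regions, 0.79 and 0.94. At high glucose most points lie left of the dashed line, and MRPL32, MRPL46, EIF5B, EEF1B2 and 1 region each of EEF1A1 and MRPL33 stand to its right with their whole interval.

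Between the HNF4A libraries, members held slightly more reads at high glucose, as all regions did: the median log2 ratio of high over low glucose was 0.31 against 0.36 for all regions, and 45 of 63 (71.4%; 81.8% of all regions) were higher, or 32 (50.8%; 54.2%) with equal sums, which moved the median of all regions by -0.31. This comparison and those over IgG share the HNF4A libraries, so the values are given side by side and not as separate support. A 2-fold excess at high glucose was seen in 1 member, MRPL32 (6.78% of all regions), at 1.37 (0.68 to 2.10), and a 2-fold excess at low glucose in 0 (0.713% of all regions). MRPL32 was also, in the authors' deposited table of high against low glucose, the single member with an unadjusted p under 0.05, at 0.0215, against 4.62% of all regions. The interval lay above 0 in 10 members (15.9%; 25.8% of all regions). Mitochondrial ribosomal proteins, with 26 of the 63 regions, had 7 of these 10. Among them were MRPL24 at 0.63, from 177 and 104 reads, and MRPL33 at 0.79 (0.14 to 1.47). EIF5B stood at 0.90 (0.32 to 1.51), RPS3A at 0.80 (0.25 to 1.36) and RPL18 at 0.67 (0.12 to 1.24). Below 0 it lay in MRPS21 alone (0.826% of all regions), at -0.77 (-1.53 to -0.04), with 27 HNF4A reads at high and 42 at low glucose. Against the median of all regions, the interval lay wholly above in MRPL32 alone (6.68% of all regions) and wholly below in 6 members (9.52%; 5.84%), regions of EEF1A1, EIF2D, IARS, MRPL48, MRPS21 and MRPS23.

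The IgG background of these regions moved more with glucose than their HNF4A reads did. For IgG the median log2 ratio of high over low glucose was 0.69 for members, against 0.51 for all regions. At least a 2-fold excess at high glucose was seen in 15 member regions (23.8%; 19.4% of all regions) and a 2-fold deficit in 0 (3.38%), and the interval lay above 0 in 23 (36.5%; 26.2%) and below 0 in 0 (1.93%). The IgG ratio exceeded the HNF4A ratio in 51 of 63 members (81.0%), against 58.3% of all regions. IgG was higher at high glucose in 56 of 63 (88.9%; 77.9% of all regions), and in 53 (84.1%; 63.2%) with equal sums. The interval lay wholly above the median of all regions in 1 region of MRPL48 (4.83% of all regions) and wholly below it in EIF3E (7.49%).

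**Figure D4:**
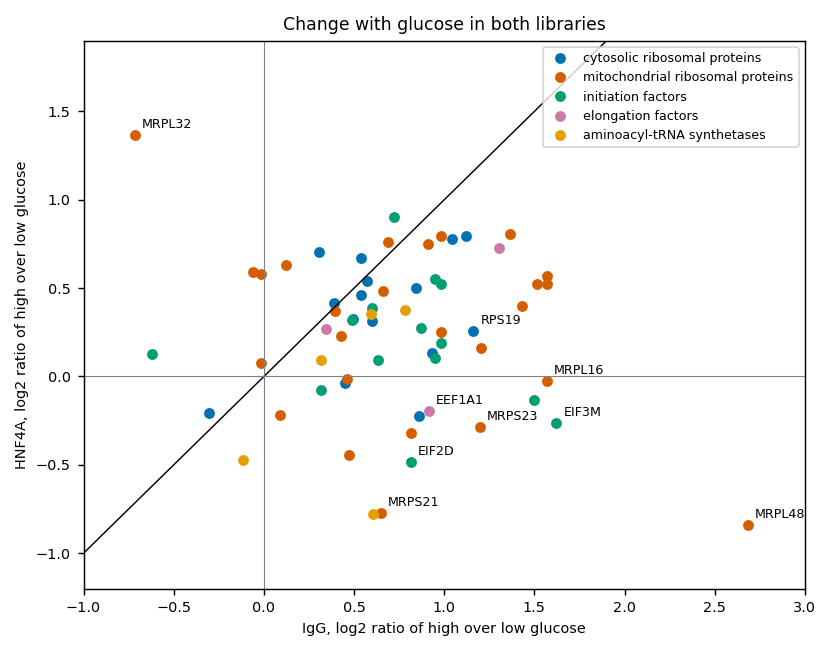
Log2 ratio of high over low glucose for HNF4A reads (y axis) against that for IgG reads (x axis), for the 63 member regions by role; the line marks an equal ratio in both, and the 9 named points are those whose exact interval of the difference excludes 0. Of the 63 points, 51 lie below the line, MRPL48 lies farthest below it and MRPL32 farthest above it.

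In most members the HNF4A over IgG ratio was accordingly smaller at high glucose than at low glucose, with a median difference of -0.39 against -0.15 for all regions. It was lower in 51 of 63 and higher in 12 (19.0%, against 41.7% of all regions, or 42.0% with equal sums) under either scaling of the libraries. Equal sums shift every difference by only 0.00487, so this is no separate check. At least a 2-fold lower ratio was seen in 14 (22.2%; 11.9% of all regions), of which 8 were among the 26 mitochondrial ribosomal protein regions. A 2-fold higher one was seen in 1, MRPL32 (8.49% of all regions). The exact interval of the difference, from the reads of all 4 libraries, lay below 0 in 8 members (12.7%; 7.42% of all regions) and above 0 in 1 (4.02%). It lay wholly below the median of all regions in 7 members (11.1%; 4.99%) and wholly above it in 2, MRPL24 and MRPL32 (6.01%). By role the median difference was -0.27 for cytosolic and -0.51 for mitochondrial ribosomal proteins, -0.50 for initiation factors, -0.58 for elongation factors and -0.35 for tRNA synthetases. Within the mitochondrial ribosome it was -0.25 for the large and -0.86 for the small subunit. Among the 10 small subunit regions IgG was higher at high glucose in 10, against 77.9% of all regions, with a median of 0.84 against 0.51. HNF4A was higher in 7, against 81.8% of all regions, with a median of 0.24 against 0.36.

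MRPL48, a large subunit protein, had the largest difference, in the shorter of its 2 regions. That region (chr11:73498849-73499295, 447 bp) held 19 HNF4A and 26 IgG reads at high glucose and 31 and 4 at low glucose. The ratio was -0.60 (-1.53 to 0.31) at high glucose and 2.93 (1.43 to 4.89) at low glucose, a difference of -3.53 (-5.67 to -1.67). Most of it lay in IgG, at 2.68 (1.16 to 4.66) for high over low glucose, where HNF4A stood at -0.84 (-1.75 to 0.03). Its other region, 7.63 kb away (chr11:73490062-73491215), held 50 and 26 reads at high and 26 and 10 at low glucose, with a difference of -0.56 (-1.98 to 0.80).

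MRPL16, also of the large subunit (chr11:59577688-59578651), held 41 HNF4A and 27 IgG reads at high and 38 and 9 at low glucose, ratios of 0.46 (-0.28 to 1.21) and 2.05 (0.98 to 3.29). Its HNF4A reads were close at both levels and its IgG reads were not, with a log2 ratio of high over low glucose of 1.57 (0.44 to 2.84). MRPS23, of the small subunit (chr17:55927059-55928028), held 45 and 44 reads at high and 50 and 19 at low glucose, ratios of -0.11 (-0.75 to 0.52) and 1.37 (0.58 to 2.21). MRPS21 (chr1:150265883-150266609) had fewer HNF4A and more IgG reads at high glucose, 27 and 38 against 42 and 24 at low glucose. Its ratio at low glucose was 0.78 (0.02 to 1.57). EIF2D (chr1:206785372-206786250) also had fewer HNF4A and more IgG reads at high glucose, 33 and 32 against 42 and 18 at low glucose. MRPL32, the one member whose interval of the difference lay above 0, had fewer IgG reads at high than at low glucose, 8 against 13, and more HNF4A reads, 68 against 24.

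Lists of other genes of the pathway covered translation control, mitochondrial translation, further tRNA synthetases with related genes, and ribosome biogenesis. Of their 90 genes, 24 had a region, 1 each. The medians of these 24 over IgG were 0.54 at high and 0.75 at low glucose, against 0.79 and 0.94 for all regions. At least a 2-fold excess was seen in 8 of 24 (33.3%) at each level, against 41.6% and 46.8% of all regions. The lists differed: the 8 ribosome biogenesis genes had medians of 0.23 and 0.43. Of the tRNA list only LRPPRC, which is not a synthetase, had a region, at -0.21 and 0.52. The 12 translation control genes had medians of 0.79 and 0.93, near those of all regions. The 3 mitochondrial translation genes lay above them, at 1.04 and 1.34. MYC, the transcription factor that drives ribosome production, had the highest ratio at high glucose, with 86 HNF4A and 14 IgG reads, 2.47 (1.65 to 3.40), and 36 and 18 at low glucose, 0.97 (0.12 to 1.88). EIF4EBP1, a repressor of cap-dependent initiation, was the next, with 40 HNF4A and 7 IgG reads. The lowest at high glucose were PAIP2, at -0.76 (-1.73 to 0.18), and the nucleolar protein gene NCL, at -0.35 (-0.92 to 0.21). At low glucose the highest were RPS6KA2, with 23 HNF4A reads and a listed 1 IgG read that may stand for 0, at 4.50 (1.87 to 9.86), and the mitochondrial elongation factor gene GFM1, at 2.33 (1.22 to 3.64). The lowest there were NAT10, at -0.53 (-1.73 to 0.62), and EIF4EBP3, at -0.09 (-0.96 to 0.78).

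Over all 5326 regions the libraries held 402237 HNF4A and 249744 IgG reads at high glucose and 295460 and 198683 at low glucose. Of these, the member regions together held 3444 HNF4A and 2383 IgG reads at high glucose and 2577 and 1520 at low glucose. A single member region held 16 to 177 and 17 to 104 HNF4A reads, and 6 to 105 and 2 to 79 IgG reads, so a typical interval spans more than a 2-fold range and no order between neighbouring members is read from it. No member was listed at 1 read in any library, the lowest value the tables hold.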

How the data were processed

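Chromatin immunoprecipitation libraries of HNF4A and IgG in HCCLM3 cells were made at high and low glucose, 1 per group. The submitters' processing notes name build hg19 and bcl2fastq, Bowtie 1.1.2, MACS, DiffBind and HOMER; settings, total depth and how regions were chosen are not stated there. There are 3 tables deposited by the authors, of comparisons over the same 5326 regions. Per the file headers and the values, these hold log2 levels of scaled reads, a log2 fold that is the difference of both levels, a p-value and an FDR.

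Without the log, 100% of levels were whole multiples of 1 step per library within 0.01, which gave the reads and the relative library sizes: 1.10 for HNF4A and 0.993 for IgG at high glucose, and 1 and 0.982 at low glucose. The reads of the HNF4A libraries agreed exactly between tables. The lowest listed value is 1 read, which may stand for 0. Ratios of 2 libraries carry Clopper-Pearson 95% intervals, and differences of ratios carry exact conditional intervals of the odds ratio. Both account for counting error alone (reads are PCR products that carry no molecular identifier, so they are not independent molecules), and they compare libraries, not conditions. The interval scripts were tested on simulated data. The tables were joined on chromosome, start and end. Starts are printed counted from 1.

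With 1 library per group no model was fitted and no p-value computed. Members and lists were chosen with earlier results of these data known. Regions with full values are, among those with at least 30 reads, the 6 highest and 4 lowest of each comparison, the most read of each role, and genes with 2 regions; of the other genes of the pathway, the 2 highest and 2 lowest at each glucose level; others are named to account for all members. Alternatives were a 1.5-fold limit, equal sums over all regions, centring on the median of all regions, at least 30 reads and 1 region per gene. Chosen after seeing the data were the intervals against 0 and against the median of all regions. Python 3.11.15, scipy 1.17.1 and pandas 2.3.3 were used.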

Additional observations from a re-analysis of the deposited data

Results flagged for a closer look

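For 9 member regions the exact interval of the difference in HNF4A over IgG log2 ratio between high and low glucose excluded 0. With 1 library per group this compares 4 libraries and has no replicate, and no adjustment for the 63 regions was made. Some of 63 unadjusted intervals can exclude 0 by counting error alone, so the 9 cannot all be taken as exceeding it. The interval of RPS19 also included the median of all regions, -0.15. Over all regions 7.42% had an interval below 0 and 4.02% above it.

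In 8 regions the ratio was lower at high glucose. The difference was -3.53 (-5.67 to -1.67) for the 447 bp region of MRPL48, -1.89 (-3.35 to -0.50) for EIF3M, -1.60 (-3.04 to -0.24) for MRPL16, -1.48 (-2.54 to -0.44) for MRPS23, -1.42 (-2.52 to -0.32) for MRPS21, -1.30 (-2.46 to -0.15) for EIF2D, -1.11 (-1.94 to -0.29) for the 1268 bp region of EEF1A1 and -0.90 (-1.77 to -0.05) for RPS19. IgG was higher at high glucose in all 8, with log2 ratios from 0.65 for MRPS21 to 2.68 for MRPL48, while HNF4A ranged from -0.84 for MRPL48 to 0.26 for RPS19. In MRPL32 the ratio was higher at high glucose, by 2.08 (0.49 to 3.72), with HNF4A at 1.37 (0.68 to 2.10) and IgG at -0.72 (-2.19 to 0.66).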

How the results depend on the processing

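No paired analysis was possible because each group has 1 library, and no replicate could be left out. With equal sums over all regions the median of members over IgG turned to -0.23 at high glucose and moved to 0.30 at low glucose, 0.00472 and 0.38 for the high over low ratios of HNF4A and IgG. The regions at least 2-fold higher then numbered 5 at high and 9 at low glucose over IgG, and 9 for IgG between glucose levels, and those 2-fold lower 6 over IgG at high glucose, 3 for HNF4A between glucose levels and 1 for IgG. This scaling forces equal totals, which removes an excess common to all regions. A 1.5-fold limit gave 21 higher and 3 lower over IgG at high glucose, 40 higher at low glucose, 13 higher and 3 lower for HNF4A between glucose levels, 39 higher and 2 lower for IgG, and 4 higher and 23 lower for the difference of ratios. Once ratios were centred on the all-region median, 5 were 2-fold higher and 11 lower at high glucose, 6 and 2 at low glucose, 3 lower for HNF4A, 6 higher and 2 lower for IgG, and 8 lower for the difference. For the fold counts under equal sums, a 1.5-fold limit and centring, the share over all regions was not computed. They show only how the members' counts depend on the setting. Counting intervals that exclude 0 in place of the fold gave 20 higher and 2 lower at high glucose and 28 higher at low glucose. Between glucose levels it gave 10 higher and 1 lower for HNF4A, 23 higher for IgG, and 1 higher and 8 lower for the difference. Counting intervals that exclude the median of all regions gave 6 higher and 24 lower at high glucose, and 3 higher and 10 lower at low glucose. Between glucose levels it gave 1 higher and 6 lower for HNF4A, 1 higher and 1 lower for IgG, and 2 higher and 7 lower for the difference. Medians over 1 region per gene were 0.32 and 0.84 over IgG at high and low glucose, 0.31 and 0.66 for HNF4A and IgG between glucose levels and -0.34 for the difference. With at least 30 reads they were 0.31, 0.78, 0.31, 0.65 and -0.39. For single regions with full values, equal sums kept 147 ratios within their own interval and moved 8 outside it, and no ratio whose interval excluded 0 changed sign. Reads limit each region: 1 member at high and 6 at low glucose had under 30 reads over both libraries.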
